A study of Homo sapiens with 3 samples.

Results

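HOX genes encode homeodomain transcription factors that give cells their position along the body axis and, in blood, help to set the state of stem and progenitor cells. In humans they lie in 4 clusters, HOXA on chromosome 7, HOXB on chromosome 17, HOXC on chromosome 12 and HOXD on chromosome 2. The genes described here are the 38 members listed by name, 10 of HOXA, 10 of HOXB, 9 of HOXC and 9 of HOXD, out of 19974 protein-coding genes with a position in the gene table. They were listed by family and not by any measured value. For each, the peak intervals of 2 histone marks were taken that overlapped its gene record, the stretch from the first to the last annotated base, with 1 kb added on either side.

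The cells were wild-type KBM7, an established human leukaemia line that is near-haploid, derived from chronic myeloid disease and positive for the BCR-ABL fusion, with no treatment named in the labels. There were 3 chromatin immunoprecipitation sequencing libraries: 1 for H3K27ac (acetylation of lysine 27 of histone H3, found at active promoters and enhancers), 1 for H3K4me3 (methylation of lysine 4, found mainly at promoters) and 1 input. Each mark has 1 library of 1 line, so no value has a spread between replicates, no test was possible, and the intervals printed cover counting error only. A lower value cannot be told apart between fewer cells with a mark and less of it in each cell.

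Each peak interval has a fold, the authors' enrichment of fragments at its summit over the expected background. The H3K27ac list holds 96659 intervals with medians of 21 fragments at the summit and a fold of 4.47, and the H3K4me3 list holds 36951 with medians of 39 fragments and 10.2. Folds are compared within a list only. The expected background at the HOX intervals had a median of 3.63 fragments for H3K27ac (2.80 to 6.35) and 2.34 for H3K4me3 (1.92 to 4.36), beside 3.63 and 2.66 in the whole lists. Among markers of the labelled lineage, 8 of 8 myeloid and progenitor genes carried both marks, and the hepatocyte genes ALB and APOB carried neither. Both marks were also at 2 of 3 T cell genes, 2 of 3 B cell genes and 2 of 4 fibroblast genes, and at 0 of 3 erythroid and 0 of 2 neuronal genes, beside 67.3% of all protein-coding genes. The part of other cell types in the HOX values was not tested.

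Within a cluster the HOX genes run in 1 direction, and their numbers give their paralogue group: HOXA9, HOXB9, HOXC9 and HOXD9 descend from the same ancestral gene. Low numbers lie at the 3′ end of a cluster and are switched on early and anteriorly, high numbers at the 5′ end late and posteriorly. Trithorax complexes with the methyltransferase KMT2A (MLL) keep HOX genes active and place H3K4 methylation, and Polycomb complexes keep them silent by methylating the same lysine 27 that H3K27ac acetylates. HOXA9, with its cofactor MEIS1, is known for driving self-renewal in myeloid leukaemias.

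Several microRNAs are encoded among the HOX genes, and some of them are known to repress HOX transcripts. Their mature sequences are shown because the paralogous microRNAs share a seed while their loci differed in chromatin marks. Letters are RNA, 5′ to 3′, from RefSeq on GRCh38.p14, with the seed (bases 2 to 8) in capitals.
hsa-miR-196b-5p: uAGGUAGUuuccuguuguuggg
hsa-miR-196a-5p: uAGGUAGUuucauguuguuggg
hsa-miR-10a-5p: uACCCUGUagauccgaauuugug
hsa-miR-615-3p: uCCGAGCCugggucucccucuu
The miR-196 sequences have the seed AGGUAGU in common and differ by C12A, the base of miR-196b first, counted from 1 at the 5′ end. MIR196B lies between HOXA9 and HOXA10 (chromosome 7, 27169480 to 27169563, minus strand) and was inside an interval of both marks. The summits of those intervals lay 207 bp (H3K27ac) and 219 bp (H3K4me3) upstream of its hairpin, at 27169770 and 27169782. miR-196a comes from MIR196A1 near HOXB9 and from MIR196A2 near HOXC10, and neither hairpin had an interval within 1 kb. The nearest H3K4me3 interval was 5.44 kb away at MIR196A1 and 1.76 kb away at MIR196A2, and the nearest H3K27ac interval 39.0 and 1.66 kb.

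The other microRNA loci of the clusters also differed. MIR10A, next to HOXB4, was 421 bp from an H3K4me3 interval of fold 71.7 and 630 bp from an H3K27ac interval of fold 35.0. MIR10B, next to HOXD4, was 7.19 kb from the nearest H3K4me3 interval and 9.34 kb from the nearest H3K27ac interval. MIR615, in HOXC5, lay inside an H3K4me3 interval of fold 18.7 (61 fragments), and the nearest H3K27ac interval was 6.43 kb away. Of the 6 microRNA genes 2 thus had both marks within 1 kb, 1 had H3K4me3 only and 3 had neither, beside 15.6%, 1.94% and 75.6% of 1911 microRNA genes.

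Promoter sequences of 5 HOX genes in different states are shown for their content of CG, the dinucleotide of CpG islands, where H3K4me3 is usually found. Each is the 250 bases before an annotated start, 5′ to 3′ in the direction of the gene, from RefSeq on GRCh38.p14, with every CG dinucleotide in capitals. HOXA9 (chr7:27165538-27165787, minus strand) and HOXA13 (chr7:27200092-27200341, minus strand) had both marks over the start, HOXD8 (chr2:176129455-176129704, plus strand) had H3K4me3 only, and HOXA4 (chr7:27130758-27131007, minus strand) and HOXB1 (chr17:48531012-48531261, minus strand) had neither.
HOXA9: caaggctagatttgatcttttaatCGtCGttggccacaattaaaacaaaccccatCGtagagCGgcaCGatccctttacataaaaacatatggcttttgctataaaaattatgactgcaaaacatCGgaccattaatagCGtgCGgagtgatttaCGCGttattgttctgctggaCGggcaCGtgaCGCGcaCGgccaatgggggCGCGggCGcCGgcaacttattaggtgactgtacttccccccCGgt
HOXA13: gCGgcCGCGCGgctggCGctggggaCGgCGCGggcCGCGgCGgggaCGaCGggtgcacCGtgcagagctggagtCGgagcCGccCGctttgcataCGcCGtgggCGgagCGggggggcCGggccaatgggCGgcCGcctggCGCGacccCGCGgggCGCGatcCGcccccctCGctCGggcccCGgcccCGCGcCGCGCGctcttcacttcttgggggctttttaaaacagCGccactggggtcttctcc
HOXD8: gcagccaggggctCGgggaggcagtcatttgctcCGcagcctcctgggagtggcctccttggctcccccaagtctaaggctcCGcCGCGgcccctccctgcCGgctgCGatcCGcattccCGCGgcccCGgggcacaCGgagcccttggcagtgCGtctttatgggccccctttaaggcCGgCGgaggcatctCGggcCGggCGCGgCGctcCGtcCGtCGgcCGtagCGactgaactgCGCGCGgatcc
HOXA4: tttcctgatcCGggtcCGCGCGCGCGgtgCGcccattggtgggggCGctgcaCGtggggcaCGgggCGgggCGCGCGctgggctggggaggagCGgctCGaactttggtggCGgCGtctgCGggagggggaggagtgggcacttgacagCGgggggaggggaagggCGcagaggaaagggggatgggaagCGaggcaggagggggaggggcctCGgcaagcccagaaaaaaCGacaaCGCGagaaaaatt
HOXB1: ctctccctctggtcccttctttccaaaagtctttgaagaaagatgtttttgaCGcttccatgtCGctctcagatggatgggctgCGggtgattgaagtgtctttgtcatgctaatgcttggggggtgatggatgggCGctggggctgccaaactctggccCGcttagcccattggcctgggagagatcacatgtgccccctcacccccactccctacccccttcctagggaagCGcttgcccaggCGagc
The marked promoters of HOXA13 and HOXD8 hold the most CG, 40 and 28, and the unmarked HOXB1 the fewest, 7. HOXA4, with neither mark, holds 26, more than the 20 of HOXA9.

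The promoter table held 20 of the 38 HOX genes, with 26 windows of 300 bp (250 before and 50 after a start). HOXA3 had 7 windows and HOXC4 and HOXC5 shared 1. HOXB1 was the only HOXB gene held, and HOXC4 and HOXC5 the only HOXC genes. The windows are thus mainly of HOXA and HOXD and do not stand for the whole family. These windows held a median of 22.5 CG (0 to 44), beside 14 over all 34961 promoter windows. The median was 26 in HOX windows with H3K4me3 and 15 in those without, beside 27 and 4 over all windows. H3K4me3 overlapped 12 of the 26 (46.2%), close to the 49.6% of all windows, and H3K27ac overlapped 8 (30.8%, beside 46.4%). Among windows with at least 22.5 CG, 8 of 13 at HOX genes (61.5%) had H3K4me3 and 5 (38.5%) had H3K27ac, whereas of the 12533 such windows in the genome 88.2% and 79.2% did. Those sets have a floor of CG in common but not the same content: the median was 27 CG in the HOX windows and 32 in all such windows. The window of HOXB1 held 11 CG and that of HOXC4 and HOXC5 held 15. The 13 HOX windows above the floor are therefore all of HOXA and HOXD.

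Short motifs were searched in the same windows on both strands. CCAAT, read by the factor NF-Y, was in 17 of the 26 HOX windows (65.4%) and in 34.6% of all windows. TGACAG, a site of MEIS and PKNOX proteins, was in 4 (15.4%, beside 15.8%), and TGATTNAT, a site of HOX with PBX proteins, was in 2 (7.69%, beside 2.82%), those of HOXA2 and HOXD11. HOXA2 held all 3 motifs in its window and had neither mark. Matches of different motifs that overlap were both counted, and a match describes the sequence only.

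Across the family H3K4me3 was common and H3K27ac was not. H3K4me3 lay within 1 kb of 28 of the 38 HOX genes (73.7%), close to the share among all protein-coding genes (73.6%). H3K27ac lay at 18 (47.4%), fewer in proportion than the 70% of all genes. Both marks were present at those 18 (all genes 67.3%), H3K4me3 alone at 10 (26.3%, beside 6.24%) and neither at 10 (26.3%, beside 23.8%). No HOX gene had H3K27ac alone, a state of 2.65% of all genes. The excess over other genes was therefore in the state with H3K4me3 alone, and this is a difference of counts in 1 library per mark with no test.

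HOX genes are short, and a short record meets fewer intervals. Of 5658 protein-coding genes under 10 kb, 48.3% had both marks, 4.91% H3K4me3 only, 3.75% H3K27ac only and 43% neither. The 32 HOX genes under 10 kb had both in 13 cases (40.6%), H3K4me3 only in 9 (28.1%) and neither in 10 (31.2%). Beside genes of like length the HOX genes thus had neither mark less often. H3K4me3 was at more of them (68.8% beside 53.2%) and H3K27ac at fewer (40.6% beside 52.1%). H3K4me3 without H3K27ac was again the more frequent state in them (28.1% beside 4.91%).

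**Figure D1:**
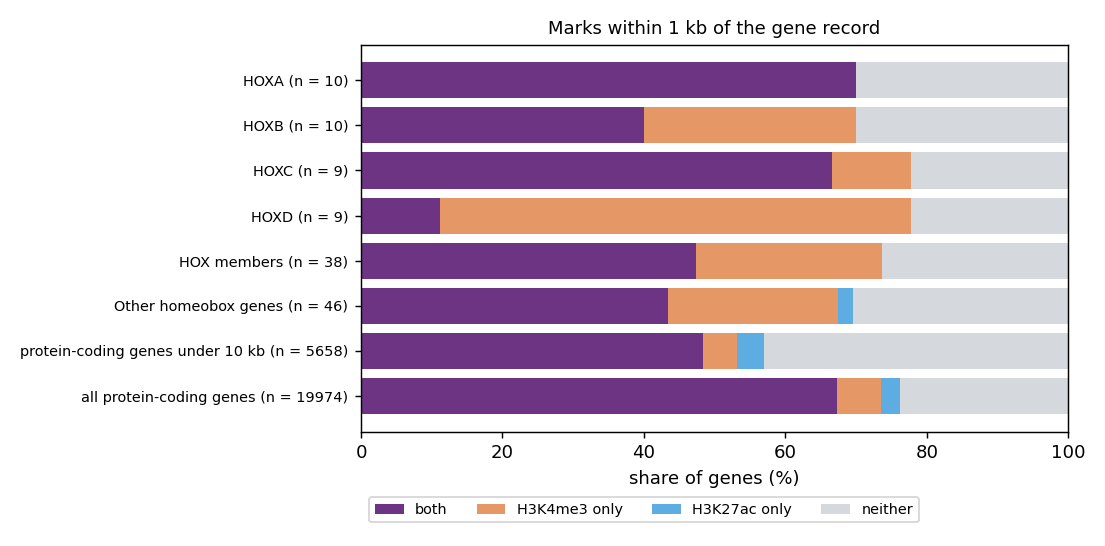
Share of genes (x axis, %) with both marks, H3K4me3 only, H3K27ac only or neither within 1 kb of the gene record, for the HOX clusters, all 38 HOX genes, 46 other homeobox genes, protein-coding genes under 10 kb and all protein-coding genes. H3K4me3 alone takes 26.3% of HOX genes and 6.24% of all genes, and most of it comes from HOXD, where 6 of 9 genes have it.

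The clusters differed in their counts, which are read here beside the 67.3% of all genes with both marks. In HOXA 7 of 10 genes had both marks and the other 3 had neither, so none had H3K4me3 alone. In HOXC 6 of 9 had both, 1 had H3K4me3 only and 2 had neither. HOXB was split, with 4 of 10 in both marks, 3 with H3K4me3 only and 3 with neither. HOXD differed most from HOXA, since 1 of 9 had both, 6 had H3K4me3 only and 2 had neither. The shares with both marks in HOXA (70%) and HOXC (66.7%) were thus near that of all genes, and those of HOXB (40%) and HOXD (11.1%) below it. H3K27ac covered 38.3% of the 102 kb HOXA span, 10.4% of HOXC (119 kb), 6.99% of HOXB (202 kb) and 4.16% of HOXD (105 kb). H3K4me3 covered 36.9%, 13.9%, 9.24% and 14.9%. The HOXB span reaches to HOXB13, which lies apart, so its shares are taken over a longer stretch. In bases HOXB held more than HOXC, both of H3K27ac (14127 beside 12442 bp) and of H3K4me3 (18691 beside 16607 bp). The median background at H3K27ac intervals was 4.55 fragments in HOXA, 3.63 in HOXB, 3.04 in HOXC and 3.37 in HOXD. It was thus highest in the cluster with most coverage, and its part in the coverage was not tested.

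The marks met less often in the HOX clusters than elsewhere. Of 50 H3K4me3 intervals over the 4 spans 25 (50%) overlapped an H3K27ac interval, beside 30979 of 36951 (83.8%) in the whole list. By cluster these were 8 of 9 in HOXA, 8 of 15 in HOXC, 6 of 13 in HOXB and 3 of 13 in HOXD. In the other direction, 5 of the 5 H3K27ac intervals of HOXD met H3K4me3, and 10 of 14 in HOXA, 9 of 11 in HOXC and 5 of 9 in HOXB. Acetylation in HOXD was therefore scarce, and each of its intervals met H3K4me3.

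**Figure D2:**
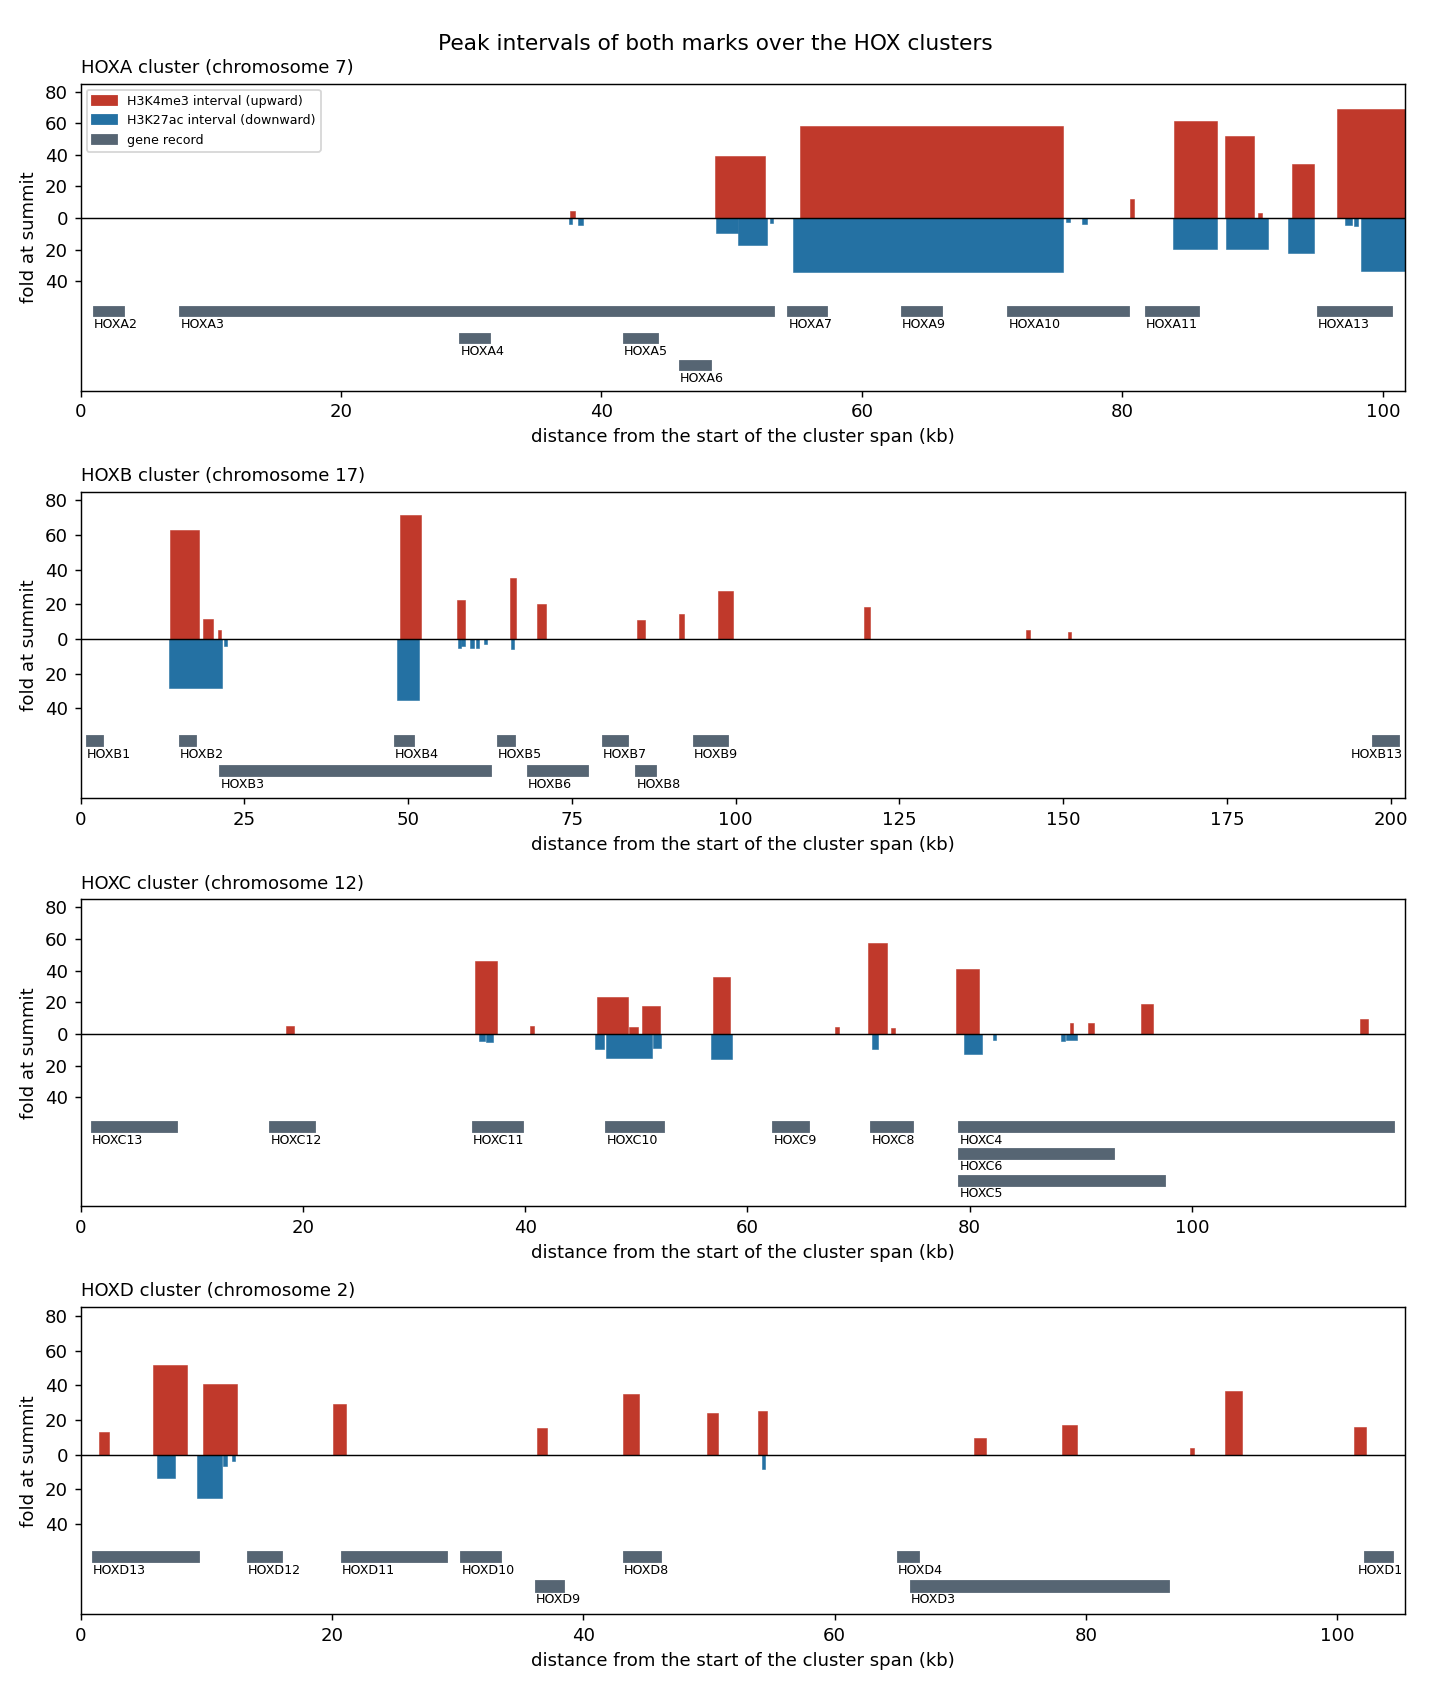
Peak intervals over each HOX cluster, by distance from the lower-coordinate end of its span (x axis, kb), with H3K4me3 fold upward and H3K27ac fold downward (y axis, fold at the summit) and gene records in grey. HOXA carries long blocks of both marks from just upstream of HOXA6 to HOXA13 and little elsewhere, whereas HOXD carries 13 H3K4me3 intervals and 5 of H3K27ac, 4 of them near HOXD13.

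In HOXA the marks formed a block over the 5′ part of the cluster that ended just upstream of HOXA6. The 3′ genes HOXA2, HOXA4 and HOXA5 had no interval within 1 kb of either mark. HOXA3, whose long record spans HOXA4, HOXA5 and HOXA6, had its strongest intervals near its 5′ end, with folds of 17.3 for H3K27ac (126 fragments, 95% interval 105 to 150) and 39.2 for H3K4me3 (209, 182 to 239). HOXA6 had that same H3K4me3 interval and an H3K27ac interval of fold 9.54 (52 fragments, 38.8 to 68.2), which began 325 and 383 bp upstream of its record. Between a pair of weak intervals downstream of HOXA5 and this block lay 10.3 kb with no H3K27ac, and the first 37.5 kb of the span, with HOXA2, HOXA4 and the 3′ part of HOXA3, held none.

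At HOXA7, HOXA9 and HOXA10 a single interval of each mark joined 3 genes. The H3K4me3 interval (chromosome 7, 27154575 to 27174828) was the widest of the whole list, and the H3K27ac interval (27154082 to 27174789) ranked 10 by width. Their folds were 58.2 (266 fragments, 235 to 300) and 34.2 (212, 184 to 243). The H3K27ac fold stood at percentile 97.9 of its list and 84.0 of genes with the mark, the H3K4me3 fold at 79.4 and 42.6, so the block was extreme in width and ordinary in H3K4me3 height. Both summits lay between HOXA9 and HOXA10, 12 bp apart, beside MIR196B. They were 4233 bp (H3K27ac) and 4245 bp (H3K4me3) from the 5′ end of HOXA9 and 13095 and 13107 bp from that of HOXA7, so the fold given to those genes is that of a distant summit. At the 5′ end of its record HOXA10 had a separate H3K4me3 interval of 325 bp and fold 12.03 (41 fragments, 29.4 to 55.6) and no H3K27ac interval within 1 kb. Another annotated promoter window of HOXA10 (27174271 to 27174570) lay inside the wide intervals of both marks. The antisense genes HOXA-AS3 and HOXA10-AS share the wide intervals, and peaks do not tell the strands apart.

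HOXA11 and HOXA13, the posterior genes of limb and genital tract development, ended the block. HOXA11 had folds of 19.2 for H3K27ac (84 fragments, 67.0 to 104) and 61.4 for H3K4me3 (204, 177 to 234), over 3324 and 3286 bp. HOXA13 had 33.4 (184, 158 to 213) and 68.7 (261, 230 to 295), the highest H3K4me3 fold of the cluster, over 8547 and 10306 bp. The latter stood at percentile 99.9 of genes by H3K4me3 width. HOTTIP, a long non-coding RNA gene known to bring the KMT2A partner WDR5 to the 5′ HOXA genes, starts beside HOXA13 and shares these intervals. Their summits lay apart, H3K4me3 672 bp inside HOXA13 and H3K27ac 1208 bp upstream of it, outside the 1 kb window. The strongest H3K27ac interval with its summit inside that window had a fold of 4.71 (23 fragments, 14.6 to 34.5).

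HOXB carried its strong marks at the anterior genes HOXB2 and HOXB4, and no acetylation at its 5′ genes. HOXB4, a factor known for expanding blood stem cells, had the highest folds of all 38 genes: 35.0 for H3K27ac (152 fragments, 129 to 178) and 71.7 for H3K4me3 (235, 206 to 267), with summits 458 and 420 bp inside its 5′ end. Its interval lies within the long record of HOXB3, which therefore takes the same values. At the 5′ end of HOXB3 itself there was an H3K27ac interval of fold 3.03 (13 fragments, 6.92 to 22.2) and no H3K4me3 interval within 1 kb. HOXB2 had 28.1 (160, 136 to 187) and 62.6 (232, 203 to 264), with an H3K27ac interval of 8002 bp, the widest of the cluster. HOXB5 marked the edge, with H3K27ac at 5.95 (22 fragments, 13.8 to 33.3) and H3K4me3 at 35.2 (102, 83.2 to 124).

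Beyond HOXB5 no H3K27ac interval lay in the remaining 136 kb of the HOXB span. HOXB6 (H3K4me3 fold 20.1, 94 fragments, 76.0 to 115), HOXB8 (10.8, 57, 43.2 to 73.9) and HOXB9 (27.7, 80, 63.4 to 99.6) had H3K4me3 alone. The HOXB9 summit lay 746 bp inside its 5′ end, while those of HOXB6 and HOXB8 lay 6941 and 2178 bp inside. HOXB7, between them, had neither mark, and the H3K4me3 interval of HOXB8 lay 455 bp outside its window. HOXB1, the most 3′ gene and a hindbrain regulator, and HOXB13, a gene of the prostate that lies apart from the rest, had neither. HOXB13 was the most isolated HOX gene, 46.2 kb from the nearest H3K4me3 interval and 102 kb from the nearest H3K27ac interval.

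HOXC had both marks over its middle, with a median H3K27ac fold of 12.4 at its marked genes, beside 33.4 in HOXA and 31.6 in HOXB. Those medians take the strongest interval per gene and repeat shared intervals. Over all H3K27ac intervals of the spans the order was the reverse, with medians of 8.92 in HOXC, 7.13 in HOXA and 5.24 in HOXB. The highest H3K27ac fold was 15.8 in the HOXC span, 34.2 in HOXA and 35.0 in HOXB. HOXC4, HOXC5 and HOXC6 begin at the same annotated position. Their strongest intervals are 1 shared pair, with folds of 12.4 for H3K27ac (66 fragments, 51.0 to 84.0) and 40.9 for H3K4me3 (149, 126 to 175). In these values they are 3 genes and 1 measurement. HOXC4 and HOXC5 also met an H3K4me3 interval of fold 18.7 (61 fragments, 46.7 to 78.4). HOXC4 alone met another of fold 9.65 (31 fragments, 21.1 to 44.0). Both lay beyond the last H3K27ac interval of the span. HOXC8 had 9.28 (38, 26.9 to 52.2) and 57.3 (169, 144 to 196), the highest H3K4me3 fold of the cluster, and HOXC10 had the highest acetylation of its genes at 15.4 (74, 58.1 to 92.9) beside an H3K4me3 fold of 23.2 (76, 59.9 to 95.1). HOXC10 also had the widest intervals of the cluster, 4136 bp of H3K27ac and 2797 bp of H3K4me3. HOXC9, between HOXC8 and HOXC10, had neither mark within 1 kb, and the nearest intervals were 3.73 kb (H3K27ac) and 2.34 kb (H3K4me3) away.

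Towards the 5′ end of HOXC acetylation was low or not listed. HOXC11, which lies beside the long non-coding RNA gene HOTAIR, had an H3K4me3 fold of 46.2 (134 fragments, 112 to 159) and the lowest H3K27ac fold of any HOX gene with the mark, 5.20 (20, 12.2 to 30.9). HOXC12 had H3K4me3 alone at 4.86 (19, 11.4 to 29.7), the lowest of the 28 genes with that mark. HOXC13, a gene of hair and nail formation, had neither, and its nearest intervals were 9.74 kb (H3K4me3) and 27.2 kb (H3K27ac) away.

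HOXD, whose genes pattern limbs and trunk, carried H3K4me3 along most of its length and acetylation mainly at its 5′ end. HOXD13 was the HOXD gene with both marks. Its H3K4me3 fold was 51.6 (179 fragments, 154 to 207). Its strongest H3K27ac interval had a fold of 24.9 (114, 94.0 to 137), with a summit 1513 bp beyond the record and outside the 1 kb window, and the H3K27ac interval with its summit inside had 13.5 (58, 44.0 to 75.0). Within 1 kb of the 5′ end of its record HOXD13 had H3K4me3 alone, at a fold of 13.2. Its annotated promoter window lies further inside the record (176092471 to 176092770) and overlapped both marks. The widest H3K4me3 interval of the cluster, 2716 bp, lay between HOXD13 and HOXD12 with a fold of 41.0 (135, 113 to 160), and it is the interval that gives HOXD12 its H3K4me3. It ended 878 bp upstream of HOXD12, and the nearest H3K27ac interval ended 17 bp outside the 1 kb window, so the state of HOXD12 rests on where the window ends. That H3K4me3 interval itself overlapped H3K27ac intervals, the strongest being the one of fold 24.9.

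The other HOXD genes with H3K4me3 alone had it at intervals that met no other HOX gene. The interval of HOXD1 also met the long non-coding RNA gene HAGLR, and that of HOXD8 also met LOC100129455. HOXD8 had a fold of 35.0 (107 fragments, 87.7 to 129), HOXD11 29.4 (85, 67.9 to 105), HOXD3 17.1 (49, 36.3 to 64.8), HOXD1 16.1 (46, 33.7 to 61.4) and HOXD9 15.5 (53, 39.7 to 69.3). The summits at HOXD1, HOXD8, HOXD9 and HOXD11 lay 241 to 656 bp from the 5′ end of the record, and that of HOXD3 lay 12496 bp inside its record. The nearest H3K27ac interval was 7.98 kb away at HOXD8 and 47.7 kb away at HOXD1. No H3K27ac interval was listed over 41.9 kb with HOXD12, HOXD11, HOXD10, HOXD9 and HOXD8, and the next, between HOXD8 and HOXD4, had a fold of 8.54 (45 fragments, 32.8 to 60.2). HOXD4 and HOXD10 had neither mark, with H3K4me3 at 4.38 and 2.87 kb.

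**Figure D3:**
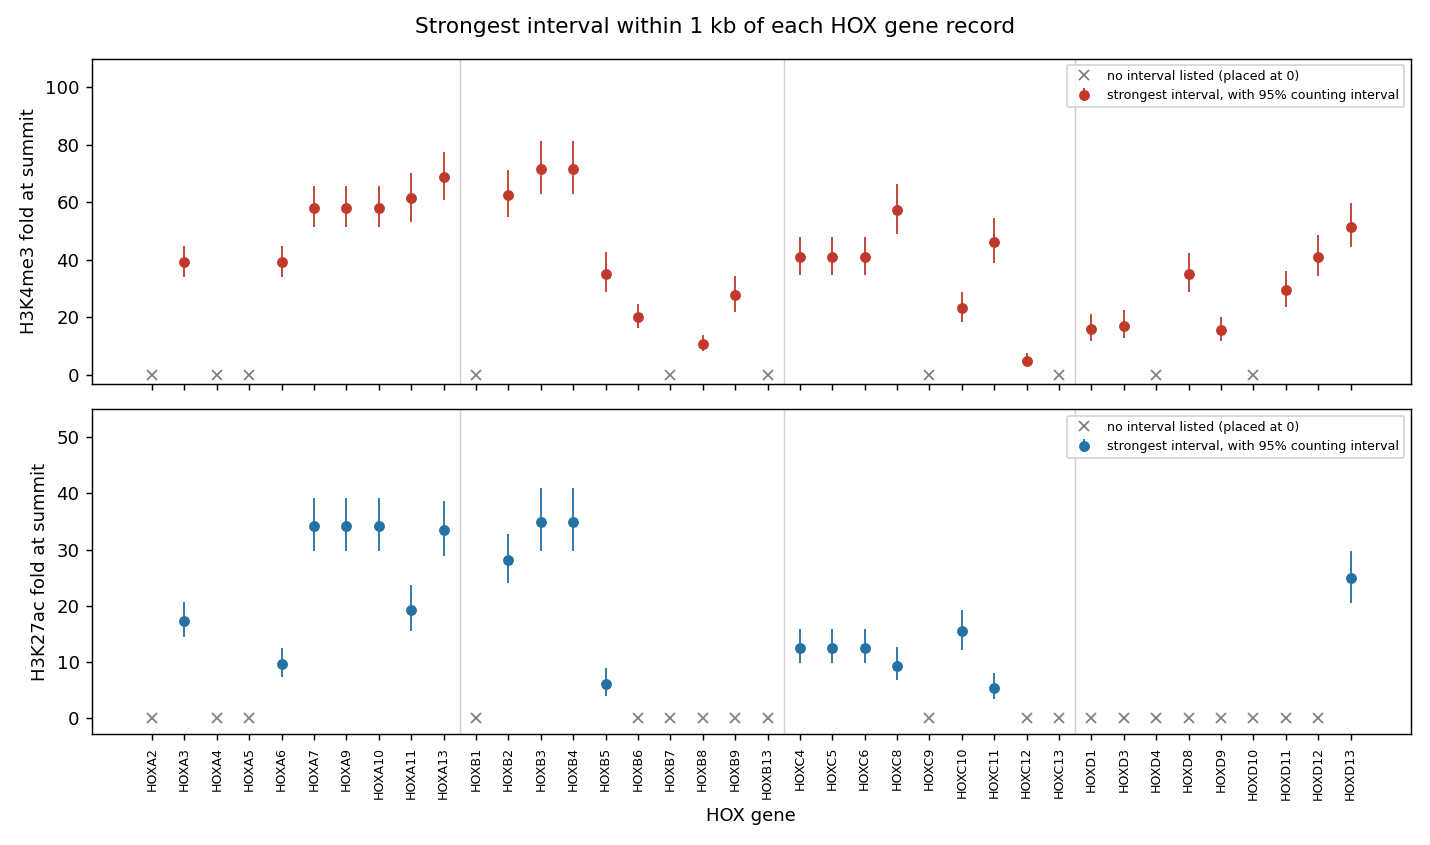
Fold at the summit of the strongest H3K4me3 (upper panel) and H3K27ac (lower panel) interval within 1 kb of each HOX gene (x axis, by cluster and number). Vertical lines are 95% counting intervals and crosses mark genes with no interval listed. HOXB4 has the highest folds, 71.7 and 35.0, HOXA7, HOXA9 and HOXA10 repeat 1 shared value, and in HOXD an H3K27ac value stands at HOXD13, from a summit 1513 bp beyond its record.

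Genes of the same number did not share a state across clusters. Of the 13 paralogue groups 12 held genes in more than 1 state, and in none did every member have both marks. In group 9 HOXA9 had both marks, HOXB9 and HOXD9 had H3K4me3 alone and HOXC9 had neither. In group 4 HOXB4 and HOXC4 had both and HOXA4 and HOXD4 neither, and in group 13 HOXA13 and HOXD13 had both and HOXB13 and HOXC13 neither. Group 12 (HOXC12 and HOXD12) was uniform, with H3K4me3 alone, and groups 1 and 12 had no gene with both. By position, both marks were at 3 of 7 genes of groups 1 to 3, 8 of 15 of groups 4 to 8 and 7 of 16 of groups 9 to 13. The share over all genes was 67.3%. Neighbours that share an interval, such as HOXA7, HOXA9 and HOXA10, count as separate genes in these numbers. In 7 of the 13 groups both marks were at genes of 2 clusters, such as HOXA10 and HOXC10.

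HOX genes with both marks had stronger and wider H3K4me3 than those with H3K4me3 alone, as genes in general did. The median H3K4me3 fold was 54.4 at the 18 with both and 18.6 at the 10 with H3K4me3 alone, beside 64.7 and 20.1 over all genes in those states. The median of the widest interval was 3183 and 1211 bp, beside 2673 and 999 bp. HOX genes with the same strongest H3K4me3 interval count separately in these medians and in the quartiles below. They are HOXA3 with HOXA6, HOXA7 with HOXA9 and HOXA10, HOXB3 with HOXB4, and HOXC4 with HOXC5 and HOXC6. Over the 28 with the mark the median H3K4me3 fold was 40.9, below the 62.3 of all genes with it, and 17 of the 28 fell in the lowest quartile of genes by fold. In that quartile (folds of 2.29 to 45.9) 70.6% of 3674 genes had H3K27ac, and 7 of the 17 HOX genes did. In the next quartiles 7 of 7 and 4 of 4 HOX genes had H3K27ac, beside 96.0% and 99.5% of genes. The 10 HOX genes with H3K4me3 and no H3K27ac interval within 1 kb thus all lay in the lowest quartile, beside 7 that had acetylation. Fold did not separate the 2 sets: HOXD8, without acetylation, had 35.0, and HOXC10, with it, had 23.2. HOXD12 had 41.0, but its H3K4me3 interval overlapped H3K27ac outside the window of the gene.

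**Figure D4:**
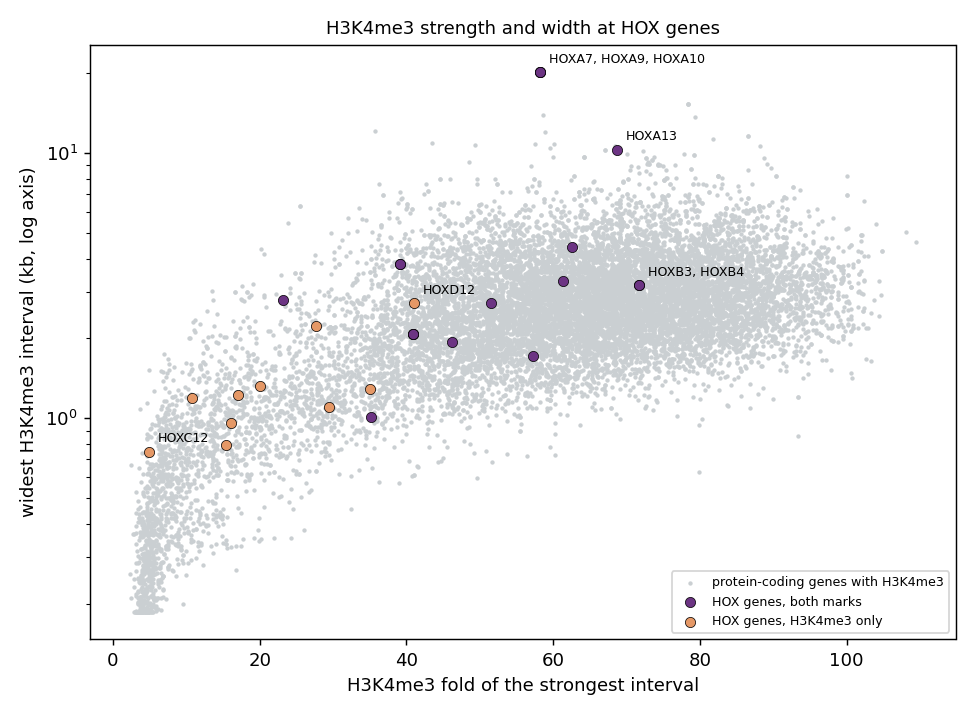
H3K4me3 fold of the strongest interval (x axis) against the widest H3K4me3 interval (y axis, kb, log scale) for each protein-coding gene with the mark (grey) and the 28 HOX genes with it (coloured by state). The shared interval of HOXA7, HOXA9 and HOXA10 is the widest of the list at a fold of 58.2. HOX genes with H3K4me3 alone within 1 kb lie at folds of 4.86 to 41.0. The value of 41.0 is that of HOXD12, whose interval overlaps H3K27ac outside the window of the gene.

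Intervals were often shared between neighbouring HOX genes. The 18 genes with H3K27ac rested on 34 distinct intervals, of which 8 met more than 1 HOX gene, and 10 of the 18 shared their strongest. The 28 with H3K4me3 rested on 37 intervals, of which 9 were shared, and 11 shared their strongest. The H3K27ac intervals were 199 to 20708 bp wide with a median of 584 bp, and the H3K4me3 intervals 201 to 20254 bp with a median of 1225 bp. Requiring the summit inside the window left both marks at 15 genes and took them from HOXA6, HOXA7 and HOXA9, whose intervals peak elsewhere. Counting intervals within 1 kb of the 5′ end of the record also left both at 15 and H3K4me3 at 23.

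No HOX cluster held a super-enhancer, which is a long region of clustered H3K27ac peaks as the authors called them. No region of the authors' deposited table overlapped a cluster or lay within 100 kb, and 0 had a HOX gene as target. The nearest was 231 kb from HOXC (chromosome 12, 54288524 to 54318943), ranked 185, with a signal 12.96 times its input and the erythroid and megakaryocyte factor NFE2 as target. It was the nearest region to HOXC and the only one within 1 Mb of any cluster. The next lay 1.24 Mb from HOXB (target DLX4), 1.46 Mb from HOXD (no target given) and 3.62 Mb from HOXA (target IGF2BP3). The shortest region of the table was 10.4 kb, so the H3K27ac interval of 20708 bp at HOXA was longer than some regions called.

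Genes encoding HOX cofactors were mostly marked. Among the TALE homeodomain genes, whose proteins bind DNA with HOX proteins, 7 had both marks and PKNOX2 had H3K4me3 alone, at a fold of 58.2. MEIS1 had folds of 36.7 for H3K27ac and 76.6 for H3K4me3, over 7548 and 8983 bp. PKNOX1 was the highest, with 51.4 and 95.8, and MEIS3 had the lowest H3K27ac fold, 4.47. Of 8 genes known downstream of HOXA9 and MEIS1 in leukaemia 7 had both, among them MYB, FLT3 and BCL2, and IGF1 had neither. The counts of both lists stand beside 67.3% of all genes with both marks. Long records meet more intervals, and those of CDK6 and BCL2 met 55 of H3K27ac each.

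Genes of the complexes that keep HOX genes on or off all had both marks. This held for 16 of 16 on the Trithorax side, such as KMT2A (38.04 and 64.0), MEN1 (29.3 and 80.4) and DOT1L (25.2 and 51.8), given as H3K27ac and H3K4me3 folds. It held also for 16 of 16 on the Polycomb side, such as EZH2 (49.9 and 85.7), the methyltransferase of lysine 27, and PHC1, which had the lowest H3K27ac fold of that list (5.68). Both marks were at 67.3% of all genes.

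The state of H3K4me3 alone was about as frequent at other homeobox genes. Of 46 related homeobox genes outside the clusters 20 had both marks, 11 had H3K4me3 only (23.9%, beside 26.3% of HOX genes), CDX1 had H3K27ac only and 14 had neither. HHEX, a factor of blood progenitors, had the highest H3K27ac fold among them (46.3), with H3K4me3 at 85.4. Where present, H3K4me3 was stronger than at HOX genes, with a median fold of 52.8 beside 40.9. Of 14 protein-coding genes within 200 kb of a cluster 10 had both marks, EVX1 and TTLL6 had H3K4me3 only and PRAC1 and PRAC2 had neither.

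Of 18 long non-coding genes of the clusters 10 had both marks, 3 H3K4me3 only and 5 neither, beside 25.6%, 4.38% and 64.1% of 18177 long non-coding genes. HOTAIRM1, a gene of myeloid differentiation at the 3′ end of HOXA, had folds of 20.1 and 63.7, next to HOXA2, which had neither mark and lay 2.70 kb from its H3K4me3 interval. HOTAIR had 5.20 and 46.2, the intervals of HOXC11. HOXA-AS2 and HOXB-AS2 lie inside the records of HOXA3 and HOXB3 and had neither mark. HOXC-AS2, between HOXC10 and HOXC9, had both (15.8 and 35.9) at intervals that met no HOX gene. The 3 with H3K4me3 alone, HAGLR, HAGLROS and HOXD-AS2, all lie in HOXD.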

How the data were processed

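Chromatin from wild-type KBM7 cells was profiled with 1 library per mark and 1 input. Per the submitters' processing notes, Bowtie2 2.3.4, bedtools 2.20.1 and hg38 were used; the name of the peak caller was not given in the sources used here. Per interval the authors deposited a fold ratio, a −log10 p-value and −log10 q-value, a score (10 times −log10 q, rounded down) and a summit, given as an offset in bases. The lowest −log10 q was 1.32 and 1.33. In the deposited super-enhancer table, signal is the total over a region, of scaling not given. Fragments at the summit and background were recovered from the deposited fold, (fragments + 1)/(background + 1), and the Poisson tail, in 100% of rows within 0.01, and 95% exact Poisson intervals were added. Library totals were not given in the sources used here.

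Gene records, promoters and microRNAs came from RefSeq GRCh38.p14, the build of the files. Intervals counted when they overlapped a record with 1 kb either side by 1 bp. Cluster spans ran from the first to the last member with 1 kb either side. Python 3.11.15, pandas 2.3.3 and scipy 1.17.1 were used, and the recovery was tested on simulated data. Values are given for the strongest, widest, single-mark and edge members. A gene of the cofactor list is not reported here. The members and lists were chosen with earlier results of these data known, and no test was run. Other windows, overlaps and peak thresholds were tried.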

Additional observations from a re-analysis of the deposited data

How the results depend on the processing

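No paired analysis was possible because each mark has 1 library and no result comes from a test, and for the same reason no replicate could be left out. Under other windows, overlaps and thresholds 19 values moved, counts being taken as moved beyond 1.5 times. Under settings chosen after seeing the data no count moved that far, but under each 14 genes had neither mark, beside 10, and 7 genes changed state with the 5′ end of the record and 4 with the summit inside the window. With annotated starts, which covered 20 HOX genes, mainly of HOXA and HOXD, 10 had H3K27ac, 15 H3K4me3, 10 both and 5 neither. With 5 kb either side 4 genes had neither mark, and HOXA2, HOXA5 and HOXC9 had both. The median widest H3K27ac interval was 3324 bp without a window and 2023 bp with 5 kb, and the median widest H3K4me3 interval 2079 bp in each. H3K27ac covered 37.4% of HOXA with intervals of −log10 q of at least 5. With 10 kb either side of the spans it covered 39.1% of HOXA, 6.41% of HOXB and 9.07% of HOXC, and H3K4me3 covered 37.8%, 8.49% and 12.1%. When the overlap had to reach 50% of the shorter of interval and window, 7 genes shared their strongest H3K4me3 interval. Super-enhancers numbered 0 overlapping a cluster and 0 within 100 kb. The state of HOXD12 changed under 5 of the settings. These settings change which bases and intervals are counted. Intervals with few fragments, such as those of HOXC12 and HOXB5, are the least precise, and a gene with no interval is one below the deposited threshold, not one shown to lack the mark.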
